A study of Danio rerio with 4 samples.

Results

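The genes described here are 10 zebrafish genes grouped as replication-dependent histone genes and read in single-cell RNA libraries: hist1h4l, hist1h2a4, si:ch1073-153i20.4, si:ch211-113a14.12, si:ch211-113a14.18, si:ch211-113a14.24, si:dkey-108k21.10, si:dkey-261m9.12, zgc:110425 and zgc:163061. They were found by symbol and make up 10 of the 27050 gene symbols in the deposited count matrices. Together they cover 34 of 27758 features, because 24 features carry the name hist1h4l and 2 carry zgc:163061, and features of 1 symbol were summed. The group was chosen on its level in these same data, where its UMI counts were high in clusters of dividing cells, so its pattern over cell types is a description and carries no test.

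Replication-dependent histone genes supply the core histones H2A, H2B, H3 and H4 and the linker histone H1 that package newly made DNA. Their transcripts rise as a cell enters S phase and are degraded when replication ends. In animals most of these transcripts end in a stem-loop in place of a poly(A) tail, and a kit that primes on poly(A), as used here, captures them only in part. A histone UMI count therefore reports the captured transcripts and not the whole histone mRNA pool. The histone genes lie in large clusters of near-identical copies, so the counts of single copies are uncertain. hist1h4l is annotated as a core histone H4 gene, hist1h2a4 as a core histone H2A gene, and si:ch1073-153i20.4 is listed as histh1l2, a linker histone H1 gene, in the reference table. The other 7 members have only clone or project names there, and their histone class is not stated.

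The study bathed dechorionated zebrafish embryos from 30 to 50 hours after fertilisation in DMSO or in 20 µM SB431542, an inhibitor of the TGF-β type I receptor ALK5 (ALK5i), in wells of pooled embryos. Cells were sorted from digested whole larvae, as gata2b GFP+ cells at 3 days after fertilisation (3 dpf) and as mpeg1.1 mCherry+ cells at 6 dpf. gata2b marks blood stem and progenitor cells, and mpeg1.1 marks macrophages. There was 1 library for each of the 4 combinations of stage and treatment, so an effect of the inhibitor cannot be told apart from differences between pools of embryos or between libraries, nor stage from sort and library. No p-value is given, and every interval is a 95% counting interval that covers sampling within a library only. Intervals of levels and ratios count UMIs, and those of shares count cells. The former leave out the spread of UMIs between cells, though few cells can hold most of them.

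The libraries held 34398 (3 dpf DMSO), 28261 (3 dpf ALK5i), 2125 (6 dpf DMSO) and 1272 (6 dpf ALK5i) barcodes, of which 31353, 25654, 1979 and 1179 were kept after filters on depth, gene number, mitochondrial share and doublet score. Median depth was 2316 UMIs per kept cell in the 3 dpf DMSO library, 1742 in 3 dpf ALK5i, 5672 in 6 dpf DMSO and 6452 in 6 dpf ALK5i. The 3 dpf libraries shared 248 barcodes, and each other pair shared 3 to 28. Cells were clustered without the histone genes and the cell cycle genes and named from marker lists, and many were not of blood type in spite of the label: 9223 of the 31353 kept cells of the 3 dpf DMSO library were pigment cell-like and 1225 neuron-like. HSPC-like cells, named from blood stem and progenitor markers, numbered 1857 in DMSO and 1551 in ALK5i at 3 dpf. When blood-like clusters were clustered again, 336, 247, 128 and 78 of these DMSO cells fell in sub-clusters named lymphoid, and they kept the HSPC-like name. In the HSPC-like cells of DMSO the lymphoid markers summed to 2287 CPM and the HSPC markers to 1509 CPM. The lists for macrophages and microglia named overlapping clusters and were joined into 1 class.

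Over all barcodes, the 10 genes gave 130794 UMIs. hist1h4l supplied 20.0% of them, si:dkey-108k21.10 18.8% and zgc:110425 16.1%, so these 3 genes weigh most in the sum over all barcodes. si:ch211-113a14.18 supplied 10.5%, si:ch211-113a14.12 8.56%, si:dkey-261m9.12 7.96% and si:ch211-113a14.24 7.29%. si:ch1073-153i20.4 supplied 5.49%, zgc:163061 4.95% and hist1h2a4 0.388%, the last with 507 UMIs in the 4 libraries. The summed level, in CPM (UMIs of the genes scaled to 1000000 UMIs), was 748 in the 3 dpf DMSO library, 878 in 3 dpf ALK5i, 172 in 6 dpf DMSO and 154 in 6 dpf ALK5i. Both 3 dpf libraries thus lay above both 6 dpf libraries.

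In the 3 dpf DMSO library the summed level differed widely between cell classes, which were compared where the library held at least 50 cells of them. It was 2874 CPM in neural progenitor- or glia-like cells (interval 2769 to 2982), 2854 in lymphoid-like cells (2807 to 2901) and 2713 in thrombocyte-like cells (2521 to 2915). These 3 classes stood at the top and their intervals overlapped. When clustered again, the thrombocyte-like cells counted 8 thrombocyte and 7 HSPC markers, so that name was a near tie. HSPC-like cells followed at 2088 CPM (2054 to 2123) and cartilage-like cells at 1632 CPM (1517 to 1754), each with an interval clear of its neighbours in the order. A middle group ran from epidermis-like cells at 840 CPM through neutrophil-like, endothelium-like, mesenchyme-like, skeletal muscle-like and neuron-like cells to liver- or intestine-like cells at 570 CPM. Within it each neighbouring pair had overlapping intervals. Macrophage- or microglia-like cells had 316 CPM (308 to 325), pigment cell-like cells 180 CPM (173 to 187) and erythroid-like cells, which carry globin mRNA in bulk, 110 CPM (95.7 to 125). These 3 stood at the bottom, without overlap.

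mki67, the gene of the proliferation antigen Ki-67, and pcna, the gene of the DNA polymerase clamp, can be set beside this order. In the 3 dpf DMSO library mki67 was at 746 CPM in lymphoid-like, 572 in thrombocyte-like, 527 in HSPC-like and 459 in neural progenitor- or glia-like cells, and at 43.7 in macrophage- or microglia-like and 21.3 in erythroid-like cells. The 4 classes highest in the histone genes were also the 4 just named with the high mki67 levels. pcna was highest in neural progenitor- or glia-like cells at 354 CPM. Thrombocyte-like (165), epidermis-like (163) and liver- or intestine-like cells (152) came next, above lymphoid-like (131) and HSPC-like cells (119). The pcna order thus departed from that of the histone genes. Cartilage-like cells, next in histone level after the 4 classes, had mki67 at 125 CPM and pcna at 72.5 CPM.

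**Figure D1:**
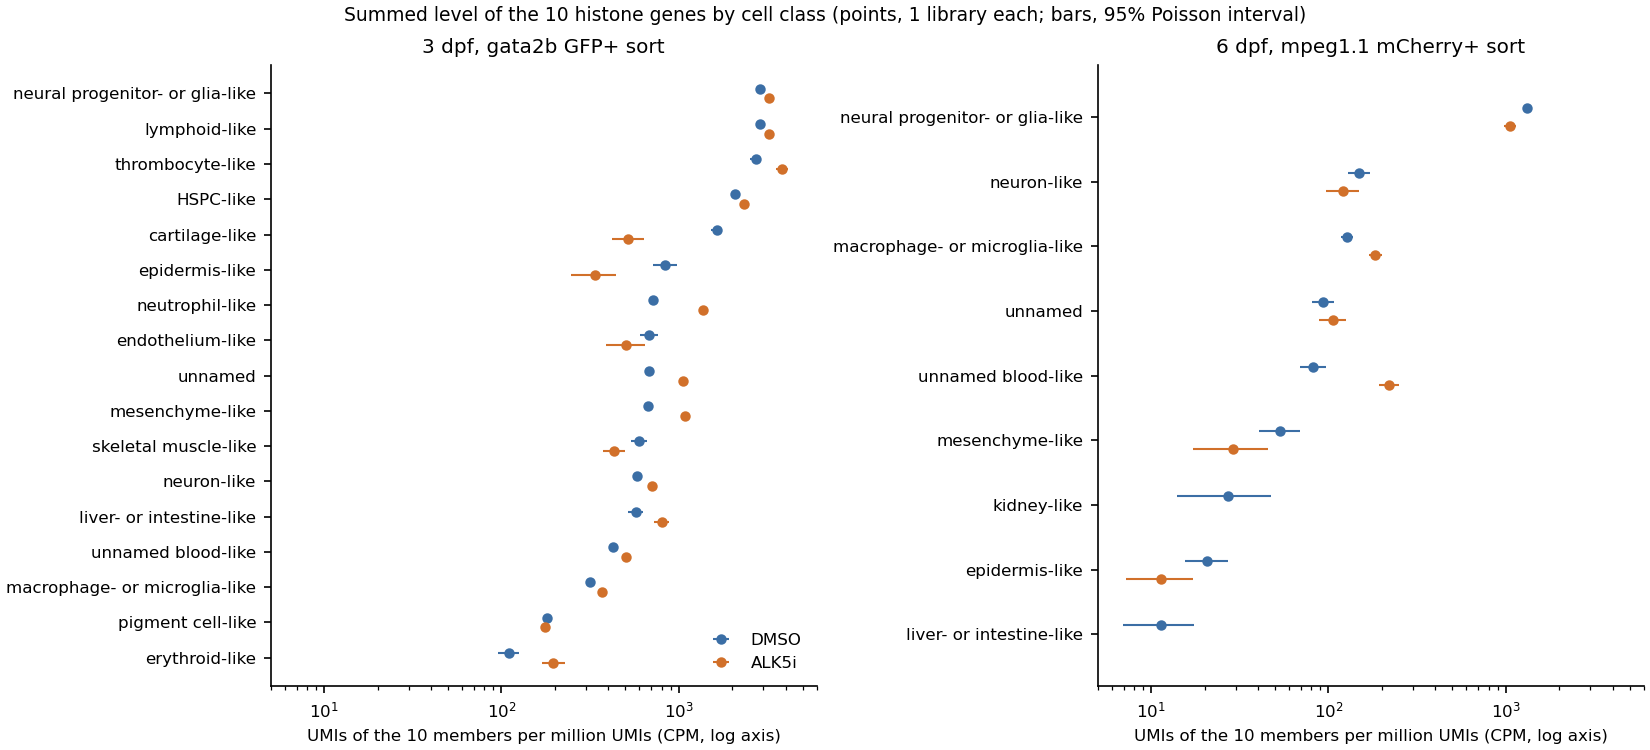
Summed level of the 10 histone genes in each cell class (CPM, log axis), 3 dpf on the left and 6 dpf on the right; each point is 1 library (blue DMSO, orange ALK5i) and bars are 95% Poisson intervals. At 3 dpf the level runs from 110 CPM in erythroid-like to 2874 CPM in neural progenitor- or glia-like cells of the DMSO library, and at 6 dpf neural progenitor- or glia-like cells stand apart at 1309 and 1063 CPM.

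The 3 dpf ALK5i library had a like top and bottom. Thrombocyte-like cells stood first at 3825 CPM, then neural progenitor- or glia-like cells at 3236, lymphoid-like cells at 3221 and HSPC-like cells at 2330 CPM. The second and the third had overlapping intervals. Erythroid-like cells at 196 CPM and pigment cell-like cells at 176 CPM were lowest and overlapped.

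At 6 dpf 1 of the classes with at least 50 cells stood apart. Neural progenitor- or glia-like cells had 1309 CPM in DMSO (1251 to 1369) and 1063 CPM in ALK5i (983 to 1147), from 93 and 52 cells. The next class of that size was neuron-like cells at 148 CPM in DMSO and unnamed blood-like cells at 220 CPM in ALK5i. Some smaller clusters lay between, such as a lymphoid-like one of the first round at 374 CPM over 46 DMSO cells and 639 CPM over 44 ALK5i cells. These are not a separate result, since its cells largely went into the unnamed blood-like class on clustering again. A sub-cluster with lymphoid markers held 194 of the 218 member UMIs of that class in ALK5i. Macrophage- or microglia-like cells, the sorted type, had 128 CPM in DMSO (118 to 138) and 184 CPM in ALK5i (170 to 199), from 472 and 325 cells.

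Within the blood-like cells of 3 dpf the level varied more than between most classes. When these cells were clustered again, the highest sub-cluster was lymphoid-like, with sall4, tcf15 and rrm2 among its leading genes, at 5570 CPM in DMSO and 6285 CPM in ALK5i. An HSPC-like sub-cluster led by spi2 and meis1b had 4719 and 4922 CPM, and an unnamed one led by the mitosis genes kif20a, top2a and cdk1 had 4110 and 4616 CPM. Another HSPC-like sub-cluster, led by si:dkey-261h17.1 and spi2, had 444 CPM in DMSO and 1059 CPM in ALK5i. The leading genes of both HSPC-like sub-clusters included spi2, si:dkey-261h17.1, meis1b and bcl11aa, so they are not shown to be different cell types. mki67 in the first of these sub-clusters was 1345 CPM in DMSO and 1340 CPM in ALK5i, against 173 and 279 CPM in the last. The first had aspm and the unnamed one kpna2 among its leading genes. Neither gene was barred from the clustering, nor were clone-named genes with a pattern like that of the members. The sub-clusters may thus divide cells by cycle or by histone level.

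The 10 genes followed a common order over cell types, with a few departures. Over the 34 clusters of 3 dpf with at least 50 cells, the correlation of a member with the sum of the other members, on the scale log2(CPM + 5), ran from 0.85 for hist1h2a4 to 0.98 for si:dkey-108k21.10. These clusters share libraries and depth, and the values are descriptions. Clone-named genes with a pattern like that of the members were not barred from the clustering. At 6 dpf, over 17 clusters, it ran from 0.40 for si:ch211-113a14.12 to 0.92 for si:ch1073-153i20.4, and several members had a median of under 4 CPM there. The low value of si:ch211-113a14.12 went with a single unnamed cluster led by si:dkey-35h6.1 and the apolipoprotein gene apoa1a. In it si:ch211-113a14.12 had 98 UMIs in 18 of 53 DMSO cells (77.8 CPM) and 41 UMIs in 14 of 22 ALK5i cells (59.5 CPM), while the other 9 members together had 5 UMIs and 1 UMI. In the reference table, which is of another genome build than the counts, this gene has the name zgc:110216 and overlaps hist1h2a4, so the counts of this pair are uncertain.

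The share of zgc:110425 differed between clusters. It made up 13.2% of the member UMIs in the 3 dpf HSPC-like cluster and 25.6% and 28.4% in the largest pair of macrophage-type clusters. In another macrophage-type cluster, led by apoeb and apoc1, its share was 15.4%, while it was 23.7% in a neuron-like cluster and 23.4% in an erythroid-like one. A high share was thus neither found in every macrophage-type cluster nor limited to them. In the 3 dpf DMSO library its level was 62.3 CPM in macrophage- or microglia-like cells and 266 CPM in HSPC-like cells, a smaller gap than that of si:dkey-108k21.10, at 52.7 and 449 CPM. At 6 dpf zgc:110425 had 496 CPM in neural progenitor- or glia-like cells of the DMSO library, where si:dkey-108k21.10 had 215 CPM and hist1h4l 185 CPM. These are levels within a class and not a ranking of promoter strength, since capture can differ between genes.

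hist1h4l, the histone H4 name, is a sum over 24 gene copies. All but 4 of the 24 features had more than 100 UMIs, and the 3 with most UMIs held 58.5% of the total, at 25.0%, 19.8% and 13.6%. Of the 24 identifiers, 20 were found in the reference table, and 1 of those is itself named hist1h4l. Of the 10 members, 7 were placed by symbol in that table, with hist1h2a4, si:ch211-113a14.12, si:ch211-113a14.18 and si:ch211-113a14.24 on one chromosome and zgc:110425 and zgc:163061 on another. hist1h4l was placed through that 1 copy only, which holds 5.24% of its UMIs and lies on the first of these chromosomes. The other 23 copies and the other 3 members were not placed. hist1h4l reached 395 of the 840 CPM in the epidermis-like cells of 3 dpf DMSO, while in HSPC-like cells it was 344 of 2088 CPM.

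**Figure D2:**
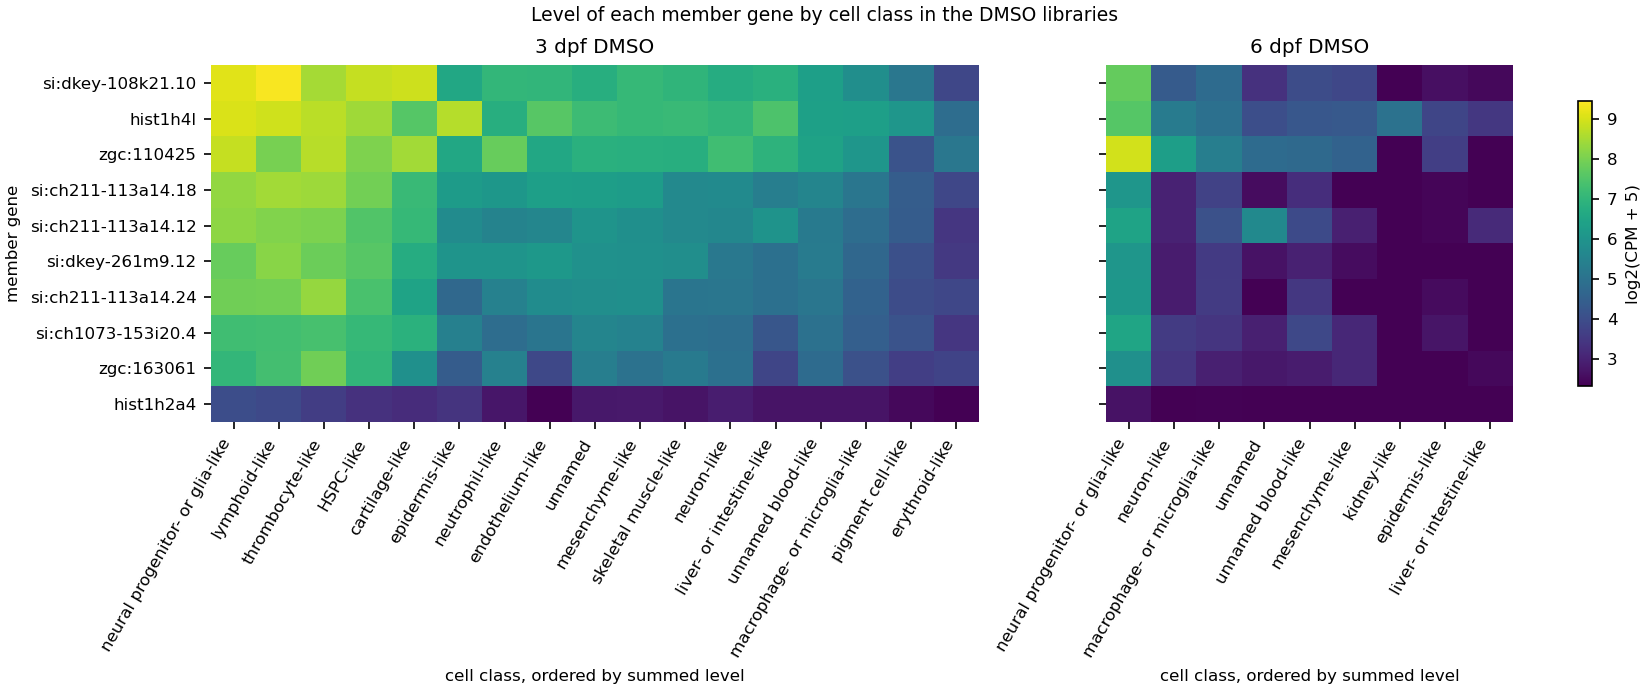
Level of each member (rows) in each cell class (columns, ordered by summed level) of the 3 dpf DMSO library, left, and the 6 dpf DMSO library, right; colour is log2(CPM + 5). Most rows darken from left to right together, while zgc:110425 is at 496 CPM in neural progenitor- or glia-like cells of 6 dpf and si:ch211-113a14.12 stands out in the unnamed class there.

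To ask how many cells carried the signal, each cell was thinned at random to 1000 UMIs, and a cell with at least 2 member UMIs was called histone-high. In the 3 dpf DMSO library 25.3% of HSPC-like cells were histone-high (449 of 1772, interval 23.3 to 27.4), 32.8% of lymphoid-like (456 of 1391, 30.3 to 35.3) and 35.1% of neural progenitor- or glia-like cells (88 of 251, 29.2 to 41.3). The share in neuron-like cells, which as a differentiated type served as the background, was 8.09% (86 of 1063, 6.52 to 9.89). It was lower still in macrophage- or microglia-like cells at 4.61%, in pigment cell-like cells at 2.51% and in erythroid-like cells at 1.2%. The background class itself had mki67 at 86.7 CPM, above the 43.7 CPM of macrophage- or microglia-like cells. It is thus not a class free of dividing cells, and a share under it does not show that the genes were absent. The part of dividing cells in the background share was not tested. Before thinning the share was 31.8% in HSPC-like cells at a median depth of 3491 UMIs and 22.0% in neuron-like cells at 2100 UMIs. Thinning left out 85 HSPC-like and 162 neuron-like cells that had under 1000 UMIs.

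The distribution over HSPC-like cells was uneven. In DMSO 66.7% of the thinned cells had no member UMI, and 4.57% had 10 or more. The histone-high cells, 25.3% of the total, held 95.5% of the member UMIs. At the threshold itself, 32 cells had 2 member UMIs and 141 had 1.

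In HSPC-like cells histone-high cells were mostly, but not wholly, cells with a UMI of mki67 or pcna. Among HSPC-like cells of 3 dpf DMSO, 84.7% of those with both mki67 and pcna were histone-high (50 of 59, interval 73.0 to 92.8). The share was 60.2% with mki67 only (224 of 372, 55.0 to 65.2), 39.8% with pcna only (39 of 98, 30.0 to 50.2) and 10.9% with neither (136 of 1243, 9.26 to 12.8). None of the 4 intervals overlapped its neighbour, and the shares had the same order in the ALK5i library, at 75.0%, 54.1%, 36.4% and 12.7%. Cells with neither gene still supplied 30.3% of the histone-high HSPC-like cells in DMSO. A cell without a UMI of mki67 at this depth is not a cell without the transcript.

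The order of the shares held in lymphoid-like cells, with 87.9% histone-high with both genes, 66.5% with mki67 only, 41.7% with pcna only and 11% with neither in DMSO. In neural progenitor- or glia-like cells the DMSO shares were 76.2%, 66.7%, 54.5% and 17.5%, and the intervals of the first 3, from 21 to 48 cells each, overlapped. In the ALK5i library of that class the share was higher with mki67 only (72.6%) than with both genes (54.8%), with overlapping intervals. In macrophage- or microglia-like cells the share was 44.6% with mki67 only (79 of 177) and 2.99% with neither (178 of 5955). Few of these cells carried mki67, and 60.5% of the histone-high ones had neither gene.

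**Figure D3:**
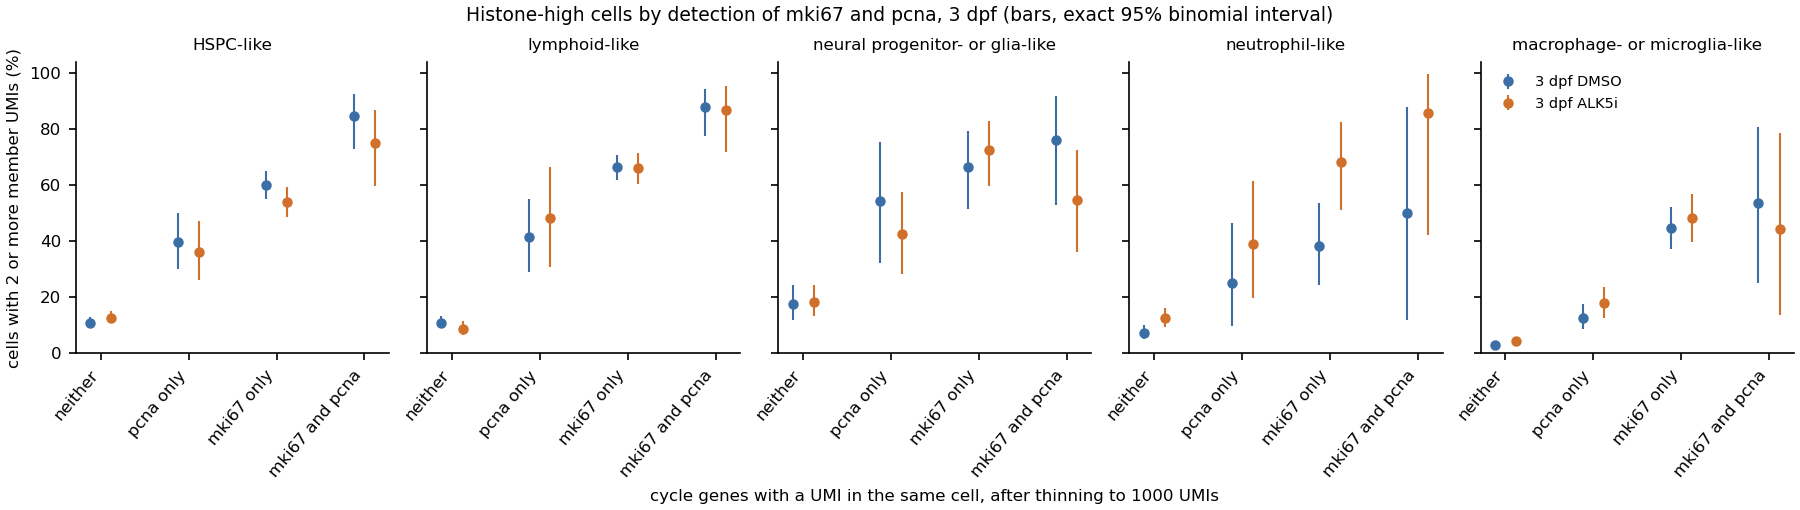
Share of cells with 2 or more member UMIs (percent, after thinning to 1000 UMIs) by whether mki67, pcna, both or neither had a UMI in the same cell, for 5 classes of 3 dpf; points are libraries (blue DMSO, orange ALK5i) and bars exact 95% binomial intervals. In HSPC-like cells of the DMSO library the share climbs from 10.9% with neither gene to 84.7% with both.

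Lists of cell cycle genes moved with the number of member UMIs per cell. In HSPC-like cells of 3 dpf DMSO the mean UMIs of 51 G2/M genes, such as cdk1, ccnb1 and top2a, went from 3.45 per cell at 0 member UMIs to 5.89 at 1, 12.5 at 2 to 4, 13.8 at 5 to 9 and 15.4 at 10 or more. The mean UMIs of 44 S phase and replication genes, such as the mcm helicase genes, were 0.65, 0.87, 2.21, 2.44 and 2.23 in the same groups. Both lists changed most between 1 and 2 to 4 member UMIs. The share of cells with mki67 was 10.9%, 19.9%, 60.3%, 59.5% and 66.7%. Cells with 10 or more member UMIs had 6.07 different members on average, so the high counts did not come from a single gene.

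In neural progenitor- or glia-like cells both lists went on climbing to the last group. Their mean S phase UMIs were 0.69, 2.15, 2.30, 2.97 and 4.07 per cell over the same groups, with 124, 39, 27, 34 and 27 cells. In macrophage- or microglia-like cells the G2/M mean was 0.63 at 0 member UMIs and 6.51 at 5 to 9. That last value, over 100 cells, stayed below the 13.8 of HSPC-like cells in the same group.

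**Figure D4:**
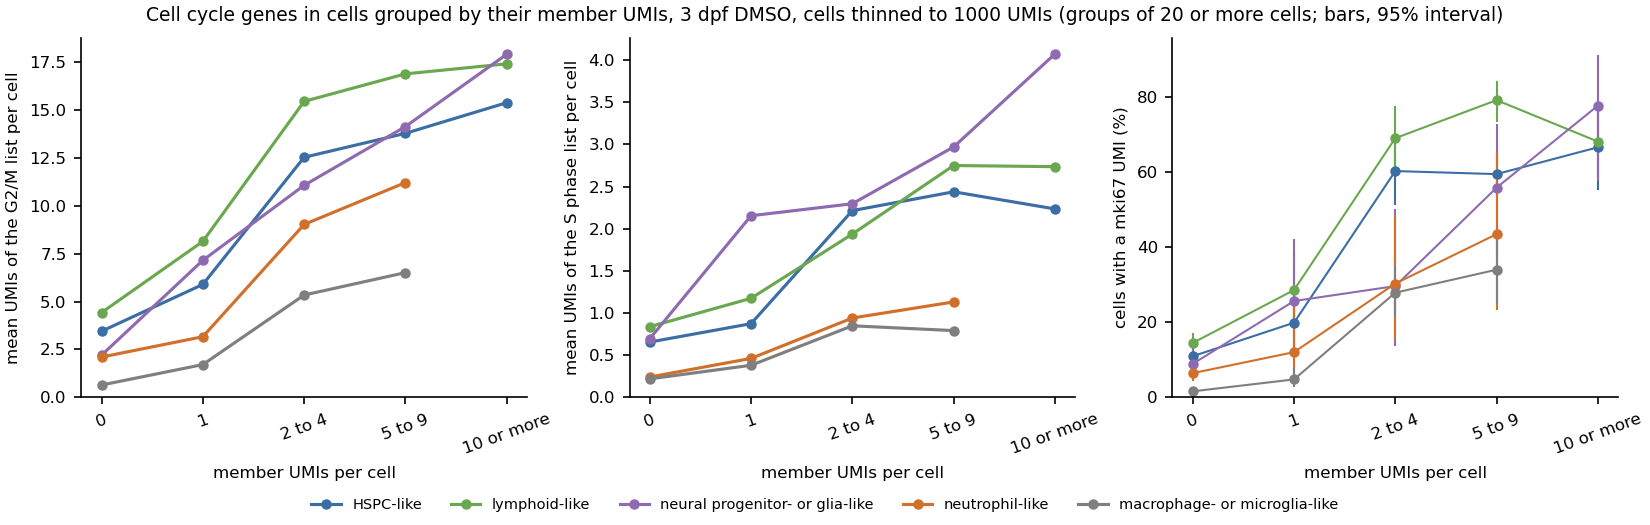
Cell cycle genes against the member UMIs of the same cell in the 3 dpf DMSO library, cells thinned to 1000 UMIs: mean UMIs of the G2/M list (left), mean UMIs of the S phase list (middle) and percent of cells with a mki67 UMI with 95% binomial intervals (right); lines are cell classes, and groups under 20 cells are not drawn. In HSPC-like cells the G2/M mean goes from 3.45 at no member UMI to 15.4 at 10 or more.

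The genes whose pattern over the 34 clusters of 3 dpf was most like that of the summed members were largely hist symbols and clone names. Ranked by Pearson r over 20502 genes, the first 10 outside the group were si:ch211-113a14.19 (0.97), zgc:173552, hist1h2a6, FP236630.1, hist1h2a3, si:dkey-108k21.21, hist2h3c, si:dkey-23a13.17, CU457819.1 and hist1h2a1 (0.93). Of these, 4 have a hist symbol and 2 carry the clone name of a member, and no function is given here to the unannotated ones. Genes of the G2/M list came after these, from dlgap5 at place 14 (0.92) on. The mitotic topoisomerase gene top2a was at 0.87 (place 34) and mki67 at 0.87 (place 41). Lower were cdk1 at 0.79, slbp, whose protein binds the histone stem-loop, at 0.69, and pcna at 0.67. At 6 dpf, over 17 clusters and 14689 genes, the S phase gene rrm1 was at place 1 with 0.95. There mki67 was at place 4 with 0.90, slbp at 0.85 and pcna at 0.84. Lower were cdk1 at 0.75 (place 266) and top2a at 0.68 (place 696).

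Other genes with a hist symbol did not all share this pattern. Of the 11 such symbols outside the group, histh1l had the most UMIs, 170314. Its level in the 3 dpf DMSO library was 1635 CPM in HSPC-like, 1227 in neuron-like and 594 in pigment cell-like cells, a flatter profile than that of the members, at 2088, 584 and 180 CPM. hist2h2l ran the other way, at 40.4 CPM in HSPC-like and 222 CPM in neuron-like cells. hist1h2a3 (85.8 and 18.8 CPM), hist1h2a11 (68.8 and 11.4 CPM) and hist1h2a6 (43.7 and 6.13 CPM) were higher in HSPC-like than in neuron-like cells, as the members were. These 11 were taken by symbol, and no claim of sequence likeness is made.

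For the treatment, the question was whether the histone level of a class differed between embryos given the ALK5 inhibitor and their DMSO controls. The measure is log2 of (ALK5i CPM + 5) over (DMSO CPM + 5), and a gene counts as higher or lower past 0.5 or -0.5 with at least 20 UMIs over both libraries. Over all kept cells of 3 dpf the summed members were higher in ALK5i by 0.27 (interval 0.26 to 0.29), and mki67 was at 161 CPM in both libraries. Class make-up differed between these libraries. Pigment cell-like cells were 9223 of the 31353 kept cells in DMSO and 5971 of the 25654 in ALK5i. The part of this make-up in the ratio over all kept cells was not tested. The ratio lay above 0 with its interval in 12 of 17 classes, below 0 in 4 and across 0 in 1. The 17 include unnamed (681 and 1056 CPM) and unnamed blood-like cells (428 and 504 CPM), which pool clusters without a class name.

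In HSPC-like cells the difference was small. The summed members had 13895 UMIs in DMSO and 9659 in ALK5i, 2088 against 2330 CPM, a log2 ratio of 0.16 (0.12 to 0.19). hist1h4l had 344 CPM in DMSO and 411 CPM in ALK5i (0.26, interval 0.17 to 0.35), and si:dkey-108k21.10 had 449 and 493 CPM (0.13). The linker histone gene si:ch1073-153i20.4 was the only member below 0, at 133 and 125 CPM (-0.09, -0.24 to 0.06). All 10 members had at least 20 UMIs, and 1 of them passed 0.5, hist1h2a4 at 0.65 (0.25 to 1.03) on 34 and 45 UMIs, while of all 12719 genes measured in the class 0.700% were higher and 2.39% lower. The median of the members was 0.17 and that of all measured genes -0.04. mki67 was at 527 and 519 CPM and pcna at 119 and 123 CPM, both with intervals across 0.

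The share of histone-high HSPC-like cells was 25.3% in DMSO and 25.8% in ALK5i, a difference of 0.47 percentage points (-2.54 to 3.51). The mean number of member UMIs in a histone-high cell was 6.67 and 7.32. Depth was unequal, at a median of 3491 UMIs per cell in DMSO and 2555 in ALK5i, and thinning set it equal for these shares. One sub-cluster of HSPC-like cells moved far more than the class: the one led by si:dkey-261h17.1 and spi2 went from 444 CPM over 430 cells to 1059 CPM over 375 cells, a ratio of 1.25 (1.11 to 1.38), and it held 19.2% of the first-round HSPC-like cluster in DMSO and 20.6% in ALK5i. It was chosen after its values were seen. The sub-cluster led by spi2 and meis1b shares many of its leading genes. That one went from 4719 CPM over 292 cells to 4922 CPM over 183 cells, a ratio of 0.06 (0.003 to 0.12). Its mki67 was at 1127 and 988 CPM. How far the ratio of 1.25 rests on where the clustering divided these cells was not tested. Of the 26 sub-clusters of blood-like cells, 19 had an interval above 0 and 1 below.

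The other genes of the histone and replication machinery changed little in HSPC-like cells. Of 43 S phase and replication genes with enough UMIs, 0 were higher and 1 was lower, the origin licensing gene cdc6 (5.86 and 2.65 CPM, -0.51). cdt1, also a licensing gene, was the highest of that list at 0.44, with mcm5 at 0.34, and pold1, a DNA polymerase subunit gene, was at -0.45. Of 51 G2/M genes none passed in either direction. birc5a, a chromosomal passenger gene, had 78.7 and 102 CPM (0.36), kif23 was at 0.27, and the checkpoint kinase genes ttk and bub1bb were at -0.21 and -0.23.

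Nor did any gene pass among the 18 measured genes of histone mRNA processing, the 24 of histone chaperones or the 11 of replacement and linker histones. In the first list eri1, a 3' exonuclease gene for histone mRNA, was at 0.36 (0.05 to 0.66), lsm11 at 0.19, sympk at -0.11 and cpsf2 at -0.22. In the second the nucleophosmin gene npm1a had 677 and 848 CPM (0.32, 0.26 to 0.39), supt16h was at 0.24, cabin1 at -0.41 and tonsl at -0.47. In the third h2az2b, an H2A.Z gene that is expressed outside S phase too, had 1040 and 1208 CPM (0.21), h2az2a was at 0.18, h2ax1 at -0.15 and h2ax at -0.27. The medians of the 5 lists lay between -0.06 and 0.02, near the -0.04 of all genes and below the 0.17 of the members.

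Lymphoid-like cells were like HSPC-like cells in this respect, but the HSPC-like class took in cells of lymphoid-named sub-clusters. The classes are thus not cleanly separate. Their summed level was 2854 CPM in DMSO and 3221 CPM in ALK5i (0.17, 0.13 to 0.21). The ratios of the 10 members ran from -0.01 for zgc:110425 to 0.23 for zgc:163061. The share of histone-high cells was 32.8% and 32.1%.

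Neutrophil-like cells showed a larger difference. The summed members were at 717 CPM in DMSO (1645 UMIs, 521 cells) and 1368 CPM in ALK5i (2038 UMIs, 443 cells), a ratio of 0.93 (0.83 to 1.02). si:ch1073-153i20.4, the linker histone gene, had 24.4 and 79.2 CPM (1.52, 1.1 to 1.93), the highest ratio of the group. The histone H4 gene hist1h4l had 105 and 194 CPM (0.85), and zgc:110425 217 and 412 CPM (0.91). The lowest ratio was that of zgc:163061, at 38.8 and 60.4 CPM (0.58, 0.18 to 0.97). The 9 members with at least 20 UMIs all passed 0.5, where 3.75% of all 8930 measured genes were higher and 5.77% lower. hist1h2a4 had 16 UMIs, under the minimum.

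The cycle genes of the neutrophil-like cells moved less than the histone genes. mki67 was at 165 and 212 CPM (0.35, 0.14 to 0.57) and pcna at 78.0 and 73.9 CPM (-0.07). Of 51 G2/M genes 8 were higher and 2 lower, with a median of 0.24, and of 28 S phase genes 4 were higher and 0 lower, with a median of 0.08, beside -0.01 for all genes. The histone-high share was 11.5% in DMSO and 20.0% in ALK5i, a difference of 8.50 percentage points (3.88 to 13.2), beside 8.09% and 9.31% in neuron-like cells. Both neutrophil-like sub-clusters had a ratio above 0, at 0.94 (807 and 1547 CPM) for the one led by abcc13 and lyz, with 324 and 311 cells, and 0.43 (723 and 978 CPM) for the one led by mmp9, with 209 and 138 cells.

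Marker lists of other blood cells can be set beside that result. In neutrophil-like cells the summed HSPC markers, of which 14 of 15 had a UMI in DMSO and 12 of 15 in ALK5i, were at 445 and 435 CPM, and the lymphoid markers at 1746 and 1586 CPM. The macrophage list was at 749 and 598 CPM and the neutrophil list itself at 121498 and 123976 CPM. The erythroid list was at 547 and 215 CPM there, and it was also lower in ALK5i in HSPC-like (638 and 295 CPM), lymphoid-like (658 and 267 CPM) and macrophage- or microglia-like cells (565 and 241 CPM). Median depth was 4194 UMIs in DMSO and 3245 in ALK5i. The part of any of these in the histone ratio was not tested.

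**Figure D5:**
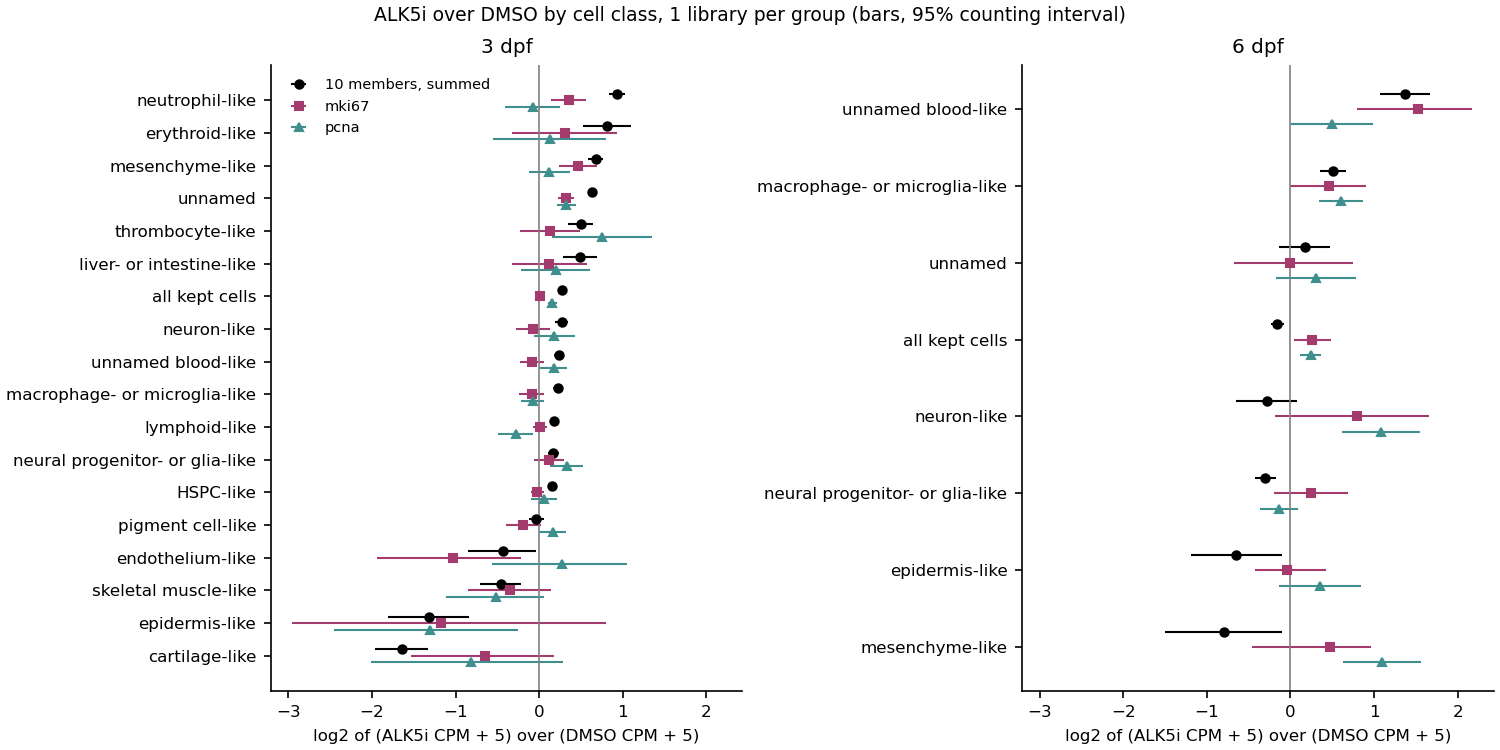
Log2 of (ALK5i CPM + 5) over (DMSO CPM + 5) by cell class at 3 dpf, left, and 6 dpf, right, for the summed members (black), mki67 (magenta) and pcna (green), with 95% counting intervals and 1 library per group. Neutrophil-like cells have a summed ratio of 0.93 and HSPC-like cells 0.16 at 3 dpf, and cartilage-like cells lie at -1.64.

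In macrophage- or microglia-like cells of 3 dpf zgc:110425 moved apart from the rest of the group. The summed level was 316 CPM in DMSO and 370 CPM in ALK5i (0.22, 0.17 to 0.28). The class kept 88 DMSO and 53 ALK5i cells of the unnamed sub-cluster led by kif20a, top2a and cdk1, which had 4110 and 4616 CPM. Macrophage-named sub-clusters ran from a ratio of 0.07 (-0.19 to 0.33) to 1.41 (1.09 to 1.75), and the largest was at 0.34. The part of the mitosis-led cells in the class ratio was not tested. zgc:110425 had 62.3 and 95 CPM (1088 and 1155 UMIs), a ratio of 0.57 (0.46 to 0.68), while the other 9 members ran from -0.14 for si:ch211-113a14.12 to 0.20 for hist1h4l. It was the 1 of 10 members past 0.5, where 0.968% of the 14364 measured genes were higher and 1.26% lower. mki67 was at 43.7 and 40.8 CPM and pcna at 50.5 and 47.6 CPM.

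Of the fixed lists in these cells, the replacement and linker histones had 1 gene of 11 past 0.5, h1-10, a linker histone variant gene, at 196 and 301 CPM (0.61, 0.54 to 0.67). h2ax1 was at 0.25, h2ax at -0.15 and h3f3c at -0.16. Of 51 G2/M genes 1 was lower, the kinetochore gene cenpf at 25.1 and 12.9 CPM (-0.75), with prc1a at -0.48, smc4 at 0.18 and hmgb2a at 0.20, and the median was -0.19. The part of the cells of the mitosis-led sub-cluster in these G2/M values was not tested. No gene passed among 42 of S phase (tyms 0.35, uhrf1 0.25, rrm1 -0.23, rfc5 -0.24), 16 of histone mRNA processing (eri1 0.15, ncbp3 0.09, slbp -0.15, ncbp2 -0.30) or 24 of chaperones (anp32e 0.17, chaf1b 0.16, cabin1 -0.19, supt16h -0.20).

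Among the cells of other tissues at 3 dpf, mesenchyme-like cells were higher in ALK5i and cartilage-like cells lower. Mesenchyme-like cells had 674 CPM in DMSO and 1081 CPM in ALK5i (0.68, 0.59 to 0.77), and 6 of the 9 members measured passed 0.5, where 3.44% of genes were higher and 7.99% lower. The highest was si:ch211-113a14.12 at 0.79, and si:ch1073-153i20.4 was at 0.04 (-0.36 to 0.43). mki67 was at 114 and 160 CPM (0.47). Median depth was 1508 and 1102 UMIs, and the histone-high share 9.62% and 16.4%.

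Cartilage-like cells had 1632 CPM over 211 DMSO cells and 520 CPM over 127 ALK5i cells (-1.64, -1.96 to -1.33). All 9 members measured were lower than -0.5, but 19.7% of the 4096 genes measured in this small class were lower too and 11.5% higher. The histone-high shares were 14.8% and 10.7%, with an interval of the difference from -11.2 to 4.44 percentage points. In DMSO the histone-high cells, 31 of 210, held 94.0% of the member UMIs after thinning. The interval of the ratio does not cover this unevenness between cells. Thrombocyte-like cells, 144 and 106, had 2713 and 3825 CPM (0.50, 0.34 to 0.65), and pigment cell-like cells 180 and 176 CPM (-0.03, -0.13 to 0.06).

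At 6 dpf, with treatment ended at 50 hours, the ratios of the sorted macrophage type and of the neural progenitors lay on opposite sides of 0. In macrophage- or microglia-like cells the summed members were at 128 CPM in DMSO (672 UMIs) and 184 CPM in ALK5i (601 UMIs), a ratio of 0.51 (0.36 to 0.67). si:ch1073-153i20.4 (5.70 and 12.9 CPM, 0.74), si:dkey-261m9.12 (6.65 and 14.4 CPM, 0.74) and si:dkey-108k21.10 (23.0 and 37.1 CPM, 0.59) passed 0.5, 3 of the 9 members measured, where 3.98% of genes were higher and 4.61% lower. hist1h4l was at 25.8 and 28.2 CPM (0.11, -0.23 to 0.44). mki67 was at 0.46 (28 and 30 UMIs) and pcna at 39.1 and 62.2 CPM (0.61). Of 39 G2/M genes 8 were higher and 0 lower, and of 22 S phase genes 2 were higher and 1 lower. The histone-high share was 1.11% in DMSO (5 of 449) and 3.74% in ALK5i (12 of 321), beside 2.47% and 0.699% in neuron-like cells of that stage. Markers of neural progenitors or glia, the class highest in histone level at 6 dpf, summed to 34.2 CPM in the macrophage- or microglia-like cells of DMSO (8 of 18 with a UMI) and 91.3 CPM in those of ALK5i (12 of 18), and gfap, olig2, mpz and plp1a were at 0 in both. Their part in the ratio was not tested.

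In the neural progenitor- or glia-like cells of 6 dpf the summed level was 1309 CPM over 93 DMSO cells and 1063 CPM over 52 ALK5i cells (-0.30, -0.43 to -0.17). zgc:163061 (-0.75), si:ch1073-153i20.4 (-0.69) and zgc:110425 (496 and 335 CPM, -0.56) were lower, 3 of the 9 members measured, where 18.6% of all 6028 genes were lower and 11.5% higher, so that count is near the background. hist1h4l was level at 185 CPM in both. Of 35 S phase genes 10 were lower and 0 higher, and of 36 G2/M genes 11 were lower and 7 higher. Macrophage markers in this class were at 49.9 CPM in DMSO, with 9 of 18 detected, and at 642 CPM in ALK5i, with 17 of 18 detected, and the class's own markers at 3827 and 2859 CPM. The part of this in the histone ratio was not tested.

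Between the stages, the DMSO libraries can be set side by side, with the limit that stage, sort and library differ together. In neural progenitor- or glia-like cells the summed members went from 2874 CPM at 3 dpf to 1309 CPM at 6 dpf, a log2 difference of -1.13 (-1.22 to -1.05). Apart from zgc:110425, at 449 and 496 CPM (0.14, -0.03 to 0.32), the members ran from -2.21 for si:ch211-113a14.18 to -0.76 for si:ch1073-153i20.4. Among them hist1h2a4 had 2 UMIs at 6 dpf, under the minimum of 20 used for the treatment ratios. The share of all genes lower at 6 dpf was not computed. mki67 was at 459 and 80.4 CPM (-2.44), and pcna at 354 and 385 CPM (0.12, -0.07 to 0.32). The intervals of zgc:110425 and pcna hold 0.

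The other classes present at both stages were all lower at 6 dpf. Macrophage- or microglia-like cells went from 316 to 128 CPM (-1.28, -1.39 to -1.16), with mki67 at 43.7 and 5.32 CPM and pcna at 50.5 and 39.1 CPM. zgc:110425 differed least among the members with at least 20 UMIs at 6 dpf, at 62.3 and 36.5 CPM (-0.70). Neuron-like cells went from 584 to 148 CPM (-1.94), mesenchyme-like cells from 674 to 53.6 CPM (-3.53) and epidermis-like cells from 840 to 20.7 CPM (-5.04). In neuron-like cells pcna was at 49.9 and 48.2 CPM.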

How the data were processed

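Single cells were measured with Chromium Next GEM Single Cell 3' v4 kits in 4 libraries of 1 sample each. The deposited matrices hold UMI counts per gene and cell, made with Cell Ranger (9.0.1 per the submitters' processing notes, 9.0.0 per the file headers) on GRCz11. CPM (UMIs scaled to 1000000 per class or library) were computed from these deposited counts. Kept cells had at least 500 UMIs and 300 genes and at most 10% mitochondrial UMIs, and doublets called by Scrublet (0.4% expected per 1000 cells) were removed, 8.21% and 6.58% of cells at 3 dpf and 0.252% and 0.422% at 6 dpf, DMSO first. Cells of a stage were clustered together (scanpy 1.11.5, 2000 variable genes without the members, the cycle and histone lists and hist symbols, 30 components, 15 neighbours, Leiden resolution 1, leidenalg 0.10.2), and a cluster took the class with the most markers, at least 3. Clusters of blood-like cells were clustered again. A sub-cluster was set apart as unnamed blood-like where its 10 leading genes held more markers of another class than of its best-matched class. All other cells kept the class of the first round. Joining the macrophage and microglia classes, and setting sub-clusters apart, were decided after the clusters were seen. Sums, exact Poisson and binomial intervals, Newcombe intervals of differences and conditional binomial intervals of ratios used numpy 2.4.6, pandas 2.3.3 and scipy 1.17.1 under Python 3.11.15. The ratio and the thinning were tested on simulated Poisson counts. These hold no spread between cells or libraries beyond counting error, so the effect of such spread was not tested. With 1 library per group there is no replicate check, and intervals and shares cover counting error only.

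The members and gene lists were chosen with earlier results of these data known. The genes named are the 10 members, mki67 and pcna, the 10 genes most like the members at 3 dpf, of each list the 2 highest and 2 lowest ratios in HSPC-like and in macrophage-like cells among genes with at least 50 UMIs, and the 5 related histone genes with most UMIs. Some cycle genes are named besides for their place in the likeness ranking. Related histone genes were to be found by protein identity, but no protein sequences were at hand. The 11 other symbols starting with hist took their place. Of the lists, 44 of 44 S phase, 51 of 52 G2/M, 20 of 26 processing, 26 of 26 chaperone and 11 of 26 replacement and linker symbols were found. Alternatives changed the filters, doublet removal, resolution, thinning depth, threshold for histone-high cells, pseudocount, scaling and members.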

Additional observations from a re-analysis of the deposited data

Results flagged for a closer look

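The treatment ratio of the summed members lay on opposite sides of 0 at 3 dpf and 6 dpf in 3 sets of cells, with each interval clear of 0, and the difference between the stages was not tested. Over all kept cells the log2 ratio of ALK5i over DMSO was 0.27 at 3 dpf and -0.15 at 6 dpf. All kept cells take in the other sets, so these are not separate results. At 6 dpf neural progenitor- or glia-like cells held 1889 of the 3498 member UMIs in DMSO and 662 of 1856 in ALK5i. Macrophage- or microglia-like cells of that stage went the other way, at 128 and 184 CPM. The part of class make-up in the ratios over all kept cells was not tested. In mesenchyme-like cells it was 0.68 at 3 dpf and -0.79 at 6 dpf, the latter on 58 and 18 member UMIs. In neural progenitor- or glia-like cells it was 0.17 at 3 dpf and -0.30 at 6 dpf. The stages also differ in sorted reporter and in library.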

How the results depend on the processing

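No paired analysis was possible because each group has 1 sample. The signs of the treatment ratios whose interval lay off 0 were kept in 18 of 19 classes at resolution 0.5, 17 of 17 with at least 1000 UMIs per cell, 18 of 20 with doublet calls kept, and 20 of 20 each with the most abundant member left out, with a pseudocount of 1 and with scaling to UMIs outside the members. With the sign kept, the interval also stayed off 0 in 17, 15, 15, 18, 20 and 20 of them, in the same order. A change of pseudocount cannot turn the sign of a ratio or of an interval limit. The members are a small part of all UMIs, so the change of scaling could hardly turn one. These settings are thus no check on the signs. At 3 dpf the ratio turned to -0.48 in erythroid-like cells with doublet calls kept, and to -0.88 with doublet calls kept and -1.0 at resolution 0.5 in liver- or intestine-like cells; the cause was not tested. Resolution 0.5 gave no HSPC-like class.

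In the 3 dpf DMSO library the HSPC-like level became 2270 CPM with at least 1000 UMIs per cell. It was 2195 CPM with doublet calls kept and 1744 CPM without the most abundant member. The macrophage- or microglia-like level became 287, 237 and 239 CPM in the same settings and 296 CPM at resolution 0.5. It was 275 CPM with the set-apart sub-clusters kept, an alternative chosen after seeing the data. The macrophage ratio became 0.36 with at least 1000 UMIs, 0.39 with doublet calls kept, 0.30 at resolution 0.5 and 0.31 with those sub-clusters kept, and the neutrophil ratio 0.80 with doublet calls kept. The histone-high share of HSPC-like cells became 28.9% with at least 1000 UMIs, 33.3% and 21% with a threshold of 1 and of 4 member UMIs, 31.5% at 2000 UMIs and 31.8% without thinning. That of neuron-like cells became 10.00% at resolution 0.5, 23.4% and 2.92% with those thresholds, 18.2% at 2000 UMIs and 22.0% without thinning. Among HSPC-like cells with mki67 the share became 70.1% and 53.1% with those thresholds, and with neither gene 19.6% and 9.09%, 13.6% with at least 1000 UMIs and 6.94% at 2000 UMIs. Of the other values 281 moved by less than their interval and 169 by more, and 3 ratios turned sign. Many of the moves were built in. Leaving out the most abundant member lowers a sum, and all 24 summed levels moved by more than their interval. A lower threshold can only raise a share, and a higher one can only lower it.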
